A study of Mus musculus with 24 samples.

Results

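The transcriptional effect of losing C/EBPα in mouse subcutaneous fat was compared between an early and a prolonged high fat diet. The comparison used 12 of the 24 arrays of the study, chosen as the arrays of the C/EBPα line whose titles name the high fat diet. They form 4 groups of 3: Adn-C/EBPα-/- mice and their control littermates on doxycycline high fat diet for 3 days, at an age of 10 weeks, and the same pair of genotypes on that diet for 1 month, at 14 weeks. All groups are labelled C57BL/6J, and per the series' description the diets held doxycycline. Per what is known of the study, Adn stands for the adiponectin promoter, which restricts the doxycycline-dependent deletion to adipocytes, so the other cells of the tissue keep the gene. The labels' genotype field names the knockout line for the controls too, so groups follow the titles, and which alleles the controls carry is not given there. Time on the diet, time since the deletion began and age rise together and cannot be told apart. The labels do not say that the 3 replicates are separate animals, so p-values measure only the spread between these arrays.

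C/EBPα is a basic leucine zipper transcription factor that pairs with itself or with other C/EBP family members and binds DNA at palindromic sites. During fat cell formation C/EBPβ and C/EBPδ come first and induce C/EBPα and PPARγ, which then maintain each other and switch on genes for lipid storage, insulin response and adipokines. On a high fat diet subcutaneous fat expands, and a group of genes that includes Mest, Sfrp5, Npr3 and Bmp3 is known to mark that expansion. The list of such genes used here also holds Nnat.

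Each effect is the mean log2 signal of the 3 knockout arrays minus that of the 3 control arrays of the same time, and the difference of effects is the effect at 1 month minus the effect at 3 days, given ± SE. A negative difference therefore means a lower knockout signal, relative to its own controls, at 1 month than at 3 days. Tests are limma's moderated test over 13576 genes with Benjamini-Hochberg adjustment, and genes with an adjusted p under 0.05 are referred to as called. Intensities are the authors' values, which were normalised separately at each time, so levels are compared between knockout and control of one time and never between times. The 3 knockout arrays lay wholly above or wholly below the 3 controls for 19.2% of genes at 3 days and 35.6% at 1 month. Groups said below to be apart, or not to overlap, are to be read beside these shares.

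The median intensity was 110.2 at 3 days and 115.9 at 1 month, against an estimated background of 103 and 107, and arrays of a group correlated with Pearson's r of 0.988 to 0.995. Among 35 gene lists for pathways and cell types, 2 lists separated single arrays from their group. The median of the 11 B and T lymphocyte markers tested lay 2.02 (log2) above the control mean in replicate 3 of the 3-day knockouts, and between -0.28 and 0.24 in the other 5 arrays of that time; in replicate 2 of the 1-month controls it lay 0.72 above. The median of 14 skeletal muscle markers lay 2.81 above the control mean in replicate 3 of the 3-day controls and ranged from -1.71 to 1.37 in the other 11 arrays. Without these 2 arrays, a setting chosen after seeing the data, 108 genes were called for a more negative and 49 for a more positive difference, of which 73 and 24 were among the calls made with all 12 arrays. The calls of the 3-day effect itself were fewer without them, 57 lower and 24 higher, against 162 and 72 with all 12. Of 42 genes chosen for naming and called for the difference, 37 were also called without these 2 arrays; the other 5, Acta2, Cidec, Fut4, Serpina1b and Serpina1d, had adjusted p-values of 0.0521 to 0.102.

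The difference of effects was called for 139 genes: 98 were more negative at 1 month (0.722% of genes tested) and 41 more positive (0.302%). Of the 98, 38 had fallen at both times and 60 were called lower at 1 month only. Of the 41, 5 were higher at both times, 34 were called higher at 1 month only, and the other 2, Lcn2 and Mup6, had fallen at 3 days only. No gene was called in opposite directions at the 2 times, and none had a rise that was called larger at 3 days. The unadjusted p of the difference was under 0.05 for 1746 genes (12.9%). Leaving out 1 array at a time gave 62 to 121 more negative calls, with 65, 62 and 63 without replicate 1 of the 3-day controls, replicate 2 of the 1-month controls and replicate 3 of the 1-month knockouts. It gave 16 to 44 more positive calls, and 16 to 26 without any array other than replicate 3 of the 3-day controls (44) or of the 3-day knockouts (36).

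The 2 single effects differed in size over the whole table. At 3 days 162 genes were lower (1.19%) and 72 higher (0.53%), while at 1 month 1149 were lower (8.46%) and 1217 higher (8.96%). Leaving out any 3-day array other than replicate 2 of the knockouts brought the 3-day calls to 73 to 107 lower and 25 to 35 higher, and the 1-month rises were 795 without replicate 1 of the 1-month controls and 778 without replicate 2 of the knockouts. The SD of the effect over all genes was 0.23 at 3 days and 0.38 at 1 month, and across genes, which are not independent replicates, the 2 effects had a Pearson r of 0.584. A call at 1 month without one at 3 days is not by itself a difference: of 2166 such genes, 94 were called for the difference. The median SE of the difference was 0.17 and the smallest difference called was 0.48, so no smaller change between the times was called with 3 arrays a group. Larger changes could be missed too. In simulated data 20% of changes of 0.5 (log2) and 70% of changes of 1 were recovered.

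Of the 162 genes that fell at 3 days, 130 had a fall of larger fitted size at 1 month, and the median effect of all 162 was -0.72 at 3 days and -1.10 at 1 month. Of the 72 genes that rose at 3 days, 35 had a larger fitted rise at 1 month, and all 72 had medians of 0.60 and 0.60. These medians are descriptions of genes chosen by their 3-day values.

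**Figure D1:**
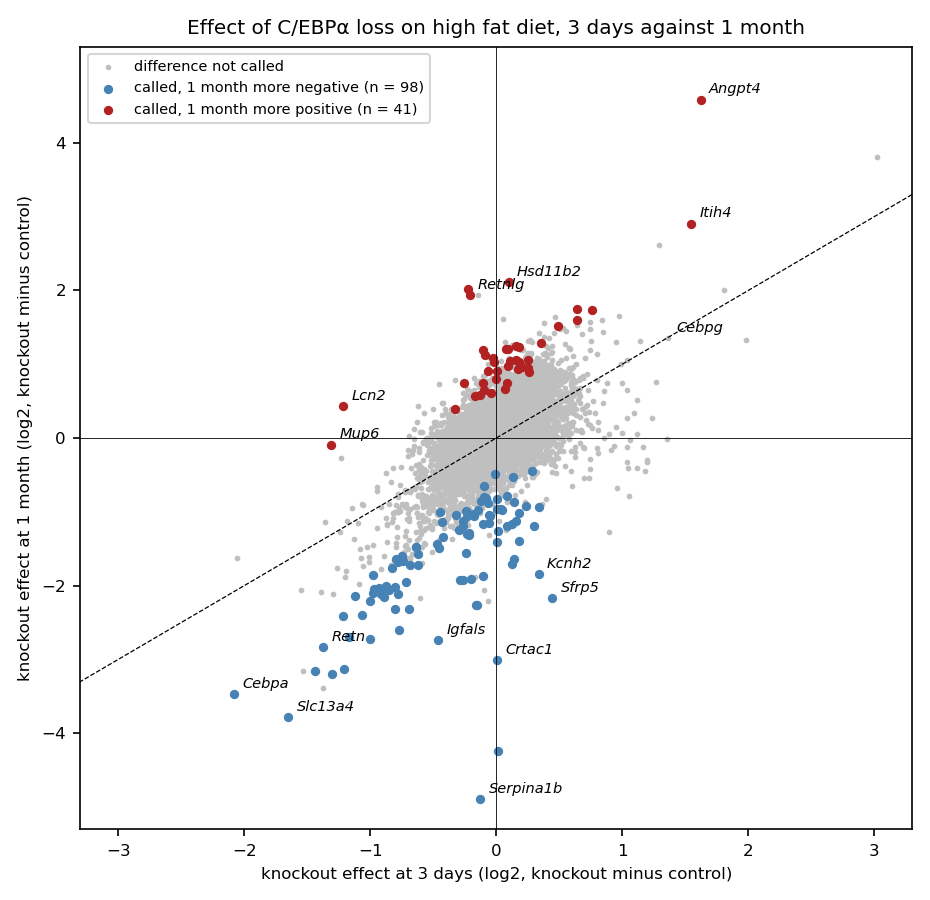
Knockout effect (log2, knockout minus control) at 3 days on the x axis and at 1 month on the y axis for 13576 genes, 1 point per gene. The 98 blue and 41 red genes were called for the difference; the dashed line marks equal effects, and Cebpg lies on it while Crtac1 and Hsd11b2 have an effect near 0 at 3 days.

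Cebpa, the deleted gene, was lower in the knockouts at both times and more so at 1 month. At 3 days its intensity was 596, 785 and 618 in the controls and 216, 239 and 215 in the knockouts. At 1 month it was 1004, 847 and 980.3 in the controls and 159, 186 and 162 in the knockouts. All knockout arrays lay below all control arrays at each time, and all 12 were above background. The effect was -2.08 ± 0.15 at 3 days and -3.47 ± 0.15 at 1 month, and the difference was -1.39 ± 0.22 (limma, adjusted p = 0.0105). Only 1 probe for the gene was kept, and the sources used here do not place it relative to the deleted part. In bulk tissue, fewer adipocytes and less RNA per adipocyte cannot be told apart.

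The other C/EBP family members and Pparg showed no called difference. Cebpb, which acts early in adipogenesis, had effects of 0.02 and 0.05, with a 95% interval of the difference from -0.34 to 0.41. Cebpd, its early partner, had effects of -0.06 and 0.38, with an interval from -0.02 to 0.89. Pparg, the partner of C/EBPα in mature fat cells, had effects of -0.43 (not called) and -0.54 (called), with an interval from -0.52 to 0.31; of its other 2 probes, one gave effects of -1.18 and -1.59, both called in a fit of all probes. Cebpg, a family member that lacks an activation domain and forms heterodimers, rose by the same amount at both times. Its intensity at 3 days was 2033, 1653 and 2348 in the controls and 4965, 5549 and 4508 in the knockouts, and at 1 month 1942, 2831 and 1975 against 5953, 5066 and 5605. The groups did not overlap at either time. Its effect was 1.37 ± 0.17 and then 1.36 ± 0.17, with an interval of the difference from -0.52 to 0.51; a second, weaker probe gave 0.66 and 0.60.

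Among the secreted products of fat cells, Retn fell at 3 days and fell further at 1 month. Retn encodes resistin, an adipokine long used as a C/EBPα target. Of 10 textbook C/EBPα targets tested, Retn alone was called lower at 3 days and called for the difference, and 8 were lower at 1 month. Of all genes, 1.19% were lower at 3 days and 8.46% at 1 month. The dim probe of Retn read 166, 175 and 163 in the 3-day controls and 112, 129 and 115 in the 3-day knockouts. At 1 month it read 250.4, 225 and 232 in the controls and 111, 109 and 110.1 in the knockouts, none of which was above background. The effect of -1.38 ± 0.16 at 3 days and -2.84 ± 0.16 at 1 month differed by -1.46 ± 0.22 (adjusted p = 0.00952), and the 1-month fall was at least 6.40-fold. Its 3-day controls stood 2.33 (log2) above the lowest value that could be read, so the 1-month fall was not readable at 3 days.

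The adipocyte list as a whole was lower at 1 month. Of 15 adipocyte markers tested, 2 were lower at 3 days (Retn and Acvr1c) and 11 at 1 month, beside 1.19% and 8.46% of all genes. The difference was called for Retn and Cidec. The median effect of the list was -0.30 at 3 days and -0.68 at 1 month, beside medians of 0.01 and 0.01 over all genes. Cidec, which helps lipid droplets fuse, had intensities that overlapped at 3 days, with an effect of 0.03 ± 0.14. At 1 month the controls read 13093, 13623 and 10063 and the knockouts 6481, 6080.3 and 6230, an effect of -0.97 ± 0.14. Its difference had a 95% interval from -1.43 to -0.57 (adjusted p = 0.0378), and the call did not hold in 10 of the 12 fits that each left out 1 array (adjusted p up to 0.101, without replicate 2 of the 1-month controls). It did not hold either without the lymphocyte-rich and muscle-rich arrays (adjusted p = 0.0974).

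Lep, the appetite hormone, and Adipoq, the adipokine whose promoter drives the deletion, were called lower at 1 month without a called difference. Lep read 10592, 13102 and 14956 in the 3-day controls and 11062, 15919 and 9349 in the knockouts, which overlapped, and 29893, 33623 and 29758 against 15069, 15647 and 17693 at 1 month, which did not. Its effects were -0.11 and -0.95, and its difference of -0.84 ± 0.25 had an adjusted p of 0.165 in limma's test, and of 0.046 (difference -1.12) without the 2 arrays that stand apart. Adipoq, among the brighter genes of the arrays, had effects of -0.41 and -0.68 and a difference of -0.27 ± 0.16. Lpl and Cd36, for fatty acid uptake, had 1-month effects of -0.06 and -0.02, neither of them called.

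**Figure D2:**
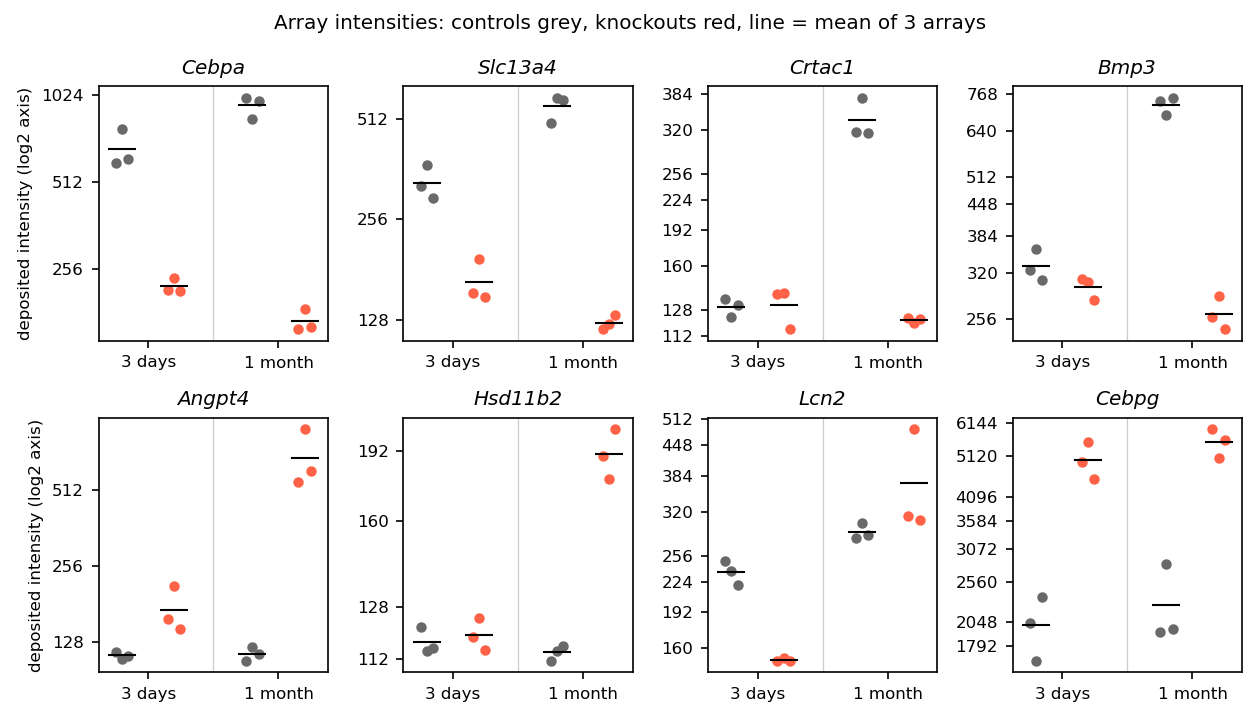
Deposited intensity (y axis, log2 scale, its range set per gene) of 8 genes in each of the 12 arrays, controls grey and knockouts red, with a line at the mean of 3 arrays; the times were normalised separately. Cebpa and Slc13a4 are lower in the knockouts at both times, Crtac1 and Bmp3 at 1 month, and Cebpg is higher to a like degree at both.

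Of the 35 lists, the genes known to mark expansion of fat had the median difference furthest from 0, -1.71. Of 5 tested, none was called at 3 days (Mest was, with -1.08 and an adjusted p of 0.0267, without the lymphocyte-rich and muscle-rich arrays), 4 fell at 1 month, and Sfrp5 and Bmp3 were called for the difference. Of all genes, 8.46% were lower at 1 month. The median effect was -0.20 at 3 days and -1.91 at 1 month. With 5 genes tested, each of these medians, and that of the difference, is the value of Bmp3 itself. Bmp3, a secreted member of the bone morphogenetic protein family, read 325, 360 and 309 in the 3-day controls and 311, 307 and 281 in the knockouts, which overlapped. The 1-month values were 741, 693 and 755 in the controls against 259, 286 and 243, and the difference was -1.71 ± 0.16 (adjusted p = 0.000608).

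Sfrp5, a secreted Wnt inhibitor, also overlapped between genotypes at 3 days, with 135, 153 and 122 in the controls and 151, 185 and 132 in the knockouts. At 1 month the controls read 308, 401 and 321 and the knockouts 148, 150.2 and 142, an effect of -2.17 ± 0.27. The difference was -2.62 ± 0.38 (adjusted p = 0.0075). Mest, which is related to lipases and tracks fat growth, had effects of -1.37 ± 0.35 and -3.39 ± 0.35, and its difference of -2.02 ± 0.49 had an adjusted p of 0.0833. It read 301, 361 and 240.3 in the 3-day controls against 217, 189 and 127, and 979, 816 and 769 against 161, 171 and 161 at 1 month, and the groups were apart at both times. Npr3, the natriuretic peptide clearance receptor, fell at 1 month (-1.89) and had an effect of -1.20, not called, at 3 days. Nnat, the fifth gene, had effects of 0.59 and 0.41, neither called. Without the lymphocyte-rich and muscle-rich arrays, 4 of the 5 genes were called for the difference, Mest with -2.31 ± 0.22 (adjusted p = 0.00177) and Npr3 with -1.20 ± 0.21 (adjusted p = 0.0252) among them.

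For some of these genes the control signal at 3 days left little room to measure a fall. With the offset used, the 3-day controls of Crtac1 stood 1.41 (log2) above the lowest value that could be read, those of Sfrp5 1.59, of Kcnj15 1.45 and of Bpifb6 0.76. Those of Retn stood 2.33 above it and of Fam110c 2.25, less than the size of their 1-month effects, -2.84 and -3.20. Of the 98 genes with a more negative difference, 24 had a 1-month fall larger than the whole 3-day range of this kind. Bmp3 (3.93), Syp (4.21), Igfals (5.50) and Slc7a10 (3.77) had wider ranges, and their 1-month falls would have been readable at 3 days.

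Several genes with the largest negative differences had no called effect at 3 days. Crtac1, which encodes a secreted matrix protein, read 136, 123 and 132 in the 3-day controls and 139, 139 and 116 in the knockouts. The 1-month arrays read 316, 377 and 315 against 123, 120.0 and 122, an effect of -3.02 ± 0.20 and a difference of -3.02 ± 0.29 (adjusted p = 0.000608). Igfals, the subunit that holds insulin-like growth factors in large serum complexes, read 922, 754 and 762 in the 3-day controls and 575, 671 and 591 in the knockouts. These did not overlap, but the effect of -0.46 ± 0.20 was not called. The 1-month arrays read 1102, 1893 and 1462 against 254, 332 and 307, and the difference was -2.28 ± 0.28 (adjusted p = 0.0028).

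Syp, known as a synaptic vesicle membrane protein, went from an effect of -0.11 ± 0.16 to -1.87 ± 0.16, with 1-month intensities of 1545, 1627 and 1538 in the controls and 554, 469 and 474 in the knockouts. Ntsr2, a neurotensin receptor, had effects of 0.14 ± 0.20 and -1.64 ± 0.20. The groups of both genes overlapped at 3 days and were apart at 1 month. Bpifb6, a member of a lipid-binding protein family, was above background in none of the 1-month knockouts, so its fall there was at least 3.92-fold.

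Several genes with a large fall encode membrane transporters or channels. This grouping, and that of the receptors, was made after the values were seen, with no count over all genes of these kinds. Slc13a4, a sodium-coupled sulfate carrier, read 321, 372 and 296 in the 3-day controls and 154, 195 and 149 in the knockouts. A month into the diet it read 496, 592 and 582 against 120, 124 and 133, near background in the knockouts. Its effect of -1.65 ± 0.20 and then -3.78 ± 0.20 gave a difference of -2.13 ± 0.29 (adjusted p = 0.00488). Slc6a13, a carrier of GABA and taurine, went from -1.21 ± 0.23 to -3.14 ± 0.23. Slc7a10, a carrier of small neutral amino acids, had no called effect at 3 days (0.12 ± 0.16) and fell at 1 month (-1.70 ± 0.16); its 1-month controls read 492, 459 and 433 and its knockouts 208, 231 and 181.

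Kcnh2, a voltage-gated potassium channel, had the smallest adjusted p of the difference among all genes. It read 168, 170.3 and 176 in the 3-day controls and 188, 202 and 191 in the knockouts, where the knockouts were the higher group. In the 1-month arrays it read 336, 374 and 358 against 161, 174 and 161, where they were the lower. The effect at 3 days, 0.34 ± 0.10, was not called, and the difference was -2.18 ± 0.14 (adjusted p = 2.74e-05). Another of its 4 probes gave a difference of -1.93, and the other 2 gave -0.14 and 0.11. Kcnj15, an inward rectifying potassium channel, had a difference of -2.11 ± 0.27, which its second probe (-0.54) did not reach.

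The next genes encode receptors for metabolites. Ffar2, a receptor for short-chain fatty acids, read 2396, 1932 and 1485 in the 3-day controls and 1203, 1165 and 1081 in the knockouts. In the 1-month arrays it read 2251, 2717 and 2440.0 against 488, 512 and 444. No arrays of the groups overlapped at either time, and the effects of -0.77 ± 0.15 and -2.61 ± 0.15 differed by -1.84 ± 0.22 (adjusted p = 0.00245). Ffar4, a receptor for long-chain fatty acids, had effects of -0.98 and -1.85 and a difference of -0.87 ± 0.16 (adjusted p = 0.0279). Hcar2, the nicotinic acid and hydroxybutyrate receptor that restrains lipolysis, fell at both times (-1.06 and -1.73), and its difference of -0.67 ± 0.19 was not called. Hcar1, its lactate-sensing relative, had effects of -0.55 (not called) and -0.92 (called), and a difference of -0.37 ± 0.30 that was not called. Sucnr1, the succinate receptor, had an effect of -0.29 at 3 days, not called, and of -1.24 at 1 month, with a difference of -0.95 ± 0.18 (adjusted p = 0.0263). Outside this group of receptors, Fam110c, among the 15 most negative differences, fell from -1.31 ± 0.25 to -3.20 ± 0.25. Its difference was not called in 7 of the 12 fits that left out 1 array (adjusted p up to 0.0687, without replicate 1 of the 3-day controls).

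Peroxisomal genes named after their values were seen included Abcd2, a transporter of very long-chain fatty acids into the peroxisome, Pxmp2, a peroxisomal membrane channel, and Pex16, which is needed to build the peroxisomal membrane. Abcd2 read 1141, 1347 and 970.3 in the 3-day controls against 677, 579 and 529.6 in the knockouts, and 1608, 1709.6 and 1993 against 389.8, 372 and 469 at 1 month. The groups were apart at both times. Its effects were -1.06 and -2.40, with a difference of -1.34 ± 0.23 (adjusted p = 0.0142). Pxmp2 had effects of -0.78 and -2.12 and a difference of -1.34 ± 0.18, and Pex16 effects of -0.78 and -1.68 and a difference of -0.90 ± 0.14.

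The next genes are mostly known as plasma or acute phase proteins of the liver. The promoter sequences of 5 genes called for the difference, from 250 bases before to 50 bases after the start site, are shown because each holds the letters TTGCNNAA, the core of a C/EBP site, in capitals. They are from RefSeq on GRCm38.p6, 5′ to 3′ in the direction of the gene: Serpina1b at chr12:103738140-103738439 (minus strand), Orm2 at chr4:63362199-63362498 (plus strand), Vnn3 at chr10:23851212-23851511 (plus strand), Cidec at chr6:113434715-113435014 (minus strand) and Lcn2 at chr2:32387690-32387989 (minus strand).
Serpina1b: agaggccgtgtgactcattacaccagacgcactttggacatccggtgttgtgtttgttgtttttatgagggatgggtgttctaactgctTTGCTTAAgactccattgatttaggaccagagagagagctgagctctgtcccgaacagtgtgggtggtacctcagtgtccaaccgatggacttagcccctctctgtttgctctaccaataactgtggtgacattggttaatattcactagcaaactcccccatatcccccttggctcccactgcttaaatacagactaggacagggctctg
Orm2: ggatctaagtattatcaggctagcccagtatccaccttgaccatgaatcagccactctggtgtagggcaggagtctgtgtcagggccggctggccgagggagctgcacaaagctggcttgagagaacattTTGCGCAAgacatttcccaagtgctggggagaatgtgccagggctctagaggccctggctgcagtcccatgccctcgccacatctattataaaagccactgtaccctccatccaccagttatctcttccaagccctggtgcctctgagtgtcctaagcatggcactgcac
Vnn3: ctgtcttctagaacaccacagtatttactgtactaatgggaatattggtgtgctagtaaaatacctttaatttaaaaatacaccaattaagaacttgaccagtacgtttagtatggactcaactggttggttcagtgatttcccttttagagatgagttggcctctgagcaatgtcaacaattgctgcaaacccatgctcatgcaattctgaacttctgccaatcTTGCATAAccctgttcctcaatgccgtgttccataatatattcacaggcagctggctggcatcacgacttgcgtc
Cidec: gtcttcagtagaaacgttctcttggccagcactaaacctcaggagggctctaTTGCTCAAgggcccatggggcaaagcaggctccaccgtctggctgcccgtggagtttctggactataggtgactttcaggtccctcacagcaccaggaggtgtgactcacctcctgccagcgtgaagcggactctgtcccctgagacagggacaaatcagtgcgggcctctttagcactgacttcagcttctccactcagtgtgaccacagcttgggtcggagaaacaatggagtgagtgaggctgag
Lcn2: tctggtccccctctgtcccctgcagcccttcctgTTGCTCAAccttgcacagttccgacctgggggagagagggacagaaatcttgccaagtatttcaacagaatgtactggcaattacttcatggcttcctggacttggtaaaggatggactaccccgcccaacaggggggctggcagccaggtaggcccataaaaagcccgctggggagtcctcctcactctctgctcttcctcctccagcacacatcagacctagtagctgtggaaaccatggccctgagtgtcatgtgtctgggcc
The letters TTGCNNAA were searched on both strands of every promoter window of a gene, and a match in any window counted. Genes with several start sites thus had more chances of a match. The letters were found for 15 of 77 genes (19.5%) with a larger fall at 1 month and a promoter in the table, for 5 of 30 (16.7%) with a larger rise, and for 1165 of 10904 genes tested (10.7%). The full palindrome TTGCGCAA, which overlaps that search, was found in Orm2 among the 77 and in 0.275% of all genes tested. A match is a description of these letters and not a binding site.

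Serpina1b and Serpina1d, which encode α1-antitrypsin, an inhibitor of neutrophil elastase, had the largest negative differences and the largest spread. Serpina1b read 417, 676 and 565 in the 3-day controls and 483, 513 and 510.2 in the knockouts, which overlapped. At 1 month the controls were scattered, with 2289, 758 and 5112, and the knockouts read 138, 127 and 259, all below the lowest control. The difference was -4.77 ± 0.92 (adjusted p = 0.0311) and was not called in 9 of the 12 fits that left out 1 array (adjusted p up to 0.0948, without replicate 1 of the 3-day controls). It had an adjusted p of 0.0731 without the lymphocyte-rich and muscle-rich arrays. Serpina1d gave -4.25 ± 0.89 and was not called in 10 of those 12 fits (adjusted p up to 0.119, without the same array). The family's copies are close to identical, so these probes may read one another's transcripts.

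Orm1, which encodes the plasma carrier orosomucoid, was a more even case. It read 8154, 9097 and 8268 in the 3-day controls and 4526, 5130.0 and 3380 in the knockouts, and 9562, 9541 and 10814 against 1727, 1565 and 1462 at 1 month. Its effect of -2.73 at 1 month exceeded that at 3 days by -1.72 ± 0.20 (adjusted p = 0.00189), and its paralog Orm2 had effects of -0.88 and -2.00. Vnn3, a member of the vanin family of pantetheinases, had effects of -1.44 and -3.16 and a difference of -1.72 ± 0.19. These 3 genes were picked after their values were seen.

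Lcn2 and Mup6 were the 2 genes whose fall was called larger at 3 days. Lcn2, which binds bacterial iron carriers and is secreted by fat and immune cells, read 249, 237 and 221 in the 3-day controls and 150.2, 152 and 150.1 in the knockouts. At 1 month it read 280.1, 303 and 285 in the controls and 314, 486 and 307 in the knockouts. The knockouts were thus below all controls at 3 days and above all controls at 1 month, where the effect of 0.43 ± 0.18 was not called. Groups were apart in either direction for 19.2% of all genes at 3 days and 35.6% at 1 month. The difference was 1.65 ± 0.26 (adjusted p = 0.0109), with an effect of -1.22 ± 0.18 at 3 days. Mup6, a major urinary protein, fell by 1.31 on the log2 scale at 3 days, from 249, 223 and 218 to 145, 141 and 147. At 1 month only 1 of its 6 arrays was above background, a control, so that no fall could have been read. The brightest probe of Mup2, a near copy, fell at both times (-1.36 and -1.14). Its other 2 probes fell at 3 days (-1.15 and -1.03) and had 1-month effects of 0.01 and -0.04. Their differences of 1.16 and 0.99 were not called in a fit of all probes.

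Itih4, another liver-type plasma protein, moved the other way. It read 167, 179 and 188 in the 3-day controls and 357, 339 and 356 in the knockouts, and 156, 146 and 146 against 490.4, 478 and 619 at 1 month. Its rise of 1.55 ± 0.13 at 3 days and 2.91 ± 0.13 at 1 month gave a difference of 1.36 ± 0.18 (adjusted p = 0.00488).

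Angpt4, an angiopoietin ligand of the endothelial Tie2 receptor, had the largest positive difference. It read 117, 109.7 and 113 in the 3-day controls and 158, 213 and 144 in the knockouts, and 108, 122 and 115 against 551, 888 and 609 at 1 month. The groups were apart at both times. Its effect of 1.62 ± 0.28 and then 4.59 ± 0.28 differed by 2.96 ± 0.40 (adjusted p = 0.00488). Hsd11b2, the enzyme that inactivates glucocorticoids, read 122, 114 and 115 in the 3-day controls and 118, 124 and 115 in the knockouts, which overlapped. In the 1-month arrays it read 111, 114 and 116 against 189, 179 and 203, a difference of 2.02 ± 0.19 (adjusted p = 0.000608), and its second probe gave 1.33.

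Retnlg, a resistin-like protein found in neutrophils and fat, had effects of -0.21 ± 0.17 and 1.94 ± 0.17, with 1-month controls at 153, 143 and 127 and knockouts at 256, 292 and 284. It is 1 of 10 neutrophil markers tested, of which 1 was higher at 3 days, 3 were higher and 1 lower at 1 month, and Retnlg alone was called for the difference. The shares over all genes were 0.53% higher at 3 days, and 8.96% higher and 8.46% lower at 1 month. Prtn3, a neutrophil granule protease, rose at both times (1.98 and 1.32), while S100a8 and S100a9, abundant in these cells, had 1-month effects of -1.67 and -0.13, not called. Fst, which encodes follistatin, an inhibitor of activin, rose at both times (0.64 ± 0.15 and 1.75 ± 0.15). The adjusted p of its 3-day rise was 0.0495 in limma's test, and 0.139 without the lymphocyte-rich and muscle-rich arrays. Its difference was not called in 5 of the 12 fits that left out 1 array (adjusted p up to 0.0709, without replicate 1 of the 1-month controls). Sox9, a transcription factor of progenitor cells, named after its values were seen, read 189, 203 and 194 against 266, 247 and 254 at 3 days, and 196, 191 and 229 against 450.5, 418 and 436 at 1 month. Its difference was 0.97 ± 0.17 (adjusted p = 0.016). Mmd2, with effects of -0.23 ± 0.30 and 2.02 ± 0.30, lost its call in 8 of those 12 fits (adjusted p up to 0.0787, without replicate 2 of the 1-month controls). Card14, a signalling adaptor, was not above background in any 1-month control, so its rise there was at least 1.82-fold, and its second probe gave a difference of 0.14. Col27a1, a fibrillar collagen, had a difference of 1.29 ± 0.23, which its other 2 probes (0.42 and 0.14) did not share.

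Macrophage genes were higher in the knockouts at 1 month. Of 25 macrophage markers tested, Cd14, the co-receptor for bacterial lipopolysaccharide, was called higher at 3 days, 17 were higher at 1 month and none was lower. Of all genes, 0.53% were higher at 3 days, and 8.96% were higher and 8.46% lower at 1 month. The median effect was 0.27 at 3 days and 0.71 at 1 month. In the 3-day knockout arrays the median of the list lay between 0.04 and 0.44 above the control mean, and in the 1-month knockouts between 0.62 and 1.07, while the 6 controls lay between -0.28 and 0.17. Every 1-month knockout array lay above every control, while at 3 days 1 knockout lay within the range of the controls.

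The difference itself was called for Mrc1, the mannose receptor of resident macrophages. It read 3401, 3268 and 2691 in the 3-day controls and 3650.1, 3257 and 3778 in the knockouts, which overlapped, and 2607, 3040.5 and 2993 against 5327, 5971 and 5294 at 1 month. Its difference of 0.76 ± 0.16 (adjusted p = 0.0449) was not called in 10 of the 12 fits that left out 1 array (adjusted p up to 0.119, without replicate 1 of the 3-day controls). Csf1r, the receptor for the main macrophage growth factor, had effects of 0.16 and 1.01 and a difference of 0.85 ± 0.20 (adjusted p = 0.077). Adgre1, the F4/80 antigen, had effects of 0.22 and 1.19 and a difference of 0.98 ± 0.35 (adjusted p = 0.252). Without the lymphocyte-rich and muscle-rich arrays 4 of the 25 were called for the difference: Csf1r (1.03 ± 0.16), Mrc1 (0.92 ± 0.16), C1qa, a complement component (0.94 ± 0.18), and Ms4a7 (1.51 ± 0.31). Cd14 was then not called at 3 days (adjusted p = 0.202). Gpnmb, Trem2 and Lgals3, known from lipid-laden macrophages, had 1-month effects of 0.63, 1.14 and 0.58 that were not called.

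Other called genes with known roles in immune cells are given together here, a grouping made after their values were seen. Fcrls and Gpr34, receptors known from tissue macrophages and microglia, had differences of 1.22 ± 0.19 and 1.12 ± 0.17. The other 2 probes of Fcrls gave 1.04 and 1.07 and the second probe of Gpr34 gave 0.71, none of them called in a fit of all probes. Cd209g, a lectin of the DC-SIGN family, had 1.13 ± 0.23. Fcrls read 1282, 1356 and 1461 in the 1-month controls and 2556, 3451 and 2708 in the knockouts, and overlapped between genotypes at 3 days. The Cd209g call was lost in 10 of the 12 fits that left out 1 array (adjusted p up to 0.114, without replicate 1 of the 3-day controls). Csf1, a growth factor that acts on macrophages, named after its values were seen, read 196, 189 and 175 against 188, 202 and 191 at 3 days, and 195, 195 and 177 against 279, 309 and 289 at 1 month, a difference of 0.94 ± 0.16 (adjusted p = 0.0139). Mrgprb2, a receptor of mast cells, had a difference of 1.10 ± 0.20, not called in 6 of those fits (adjusted p up to 0.0742, without replicate 1 of the 3-day controls). Fut4, a fucosyltransferase, had 1.08 ± 0.22 and was not called in 10 of them (up to 0.107, without replicate 3 of the 1-month knockouts). Of 22 chemokines and inflammatory genes, 7 were higher and 2 lower at 1 month, beside 8.96% and 8.46% of all genes. Ccl8, a chemokine of resident macrophages, had effects of 0.06 and 1.61 and a difference of 1.55 ± 0.36 (adjusted p = 0.064).

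**Figure D3:**
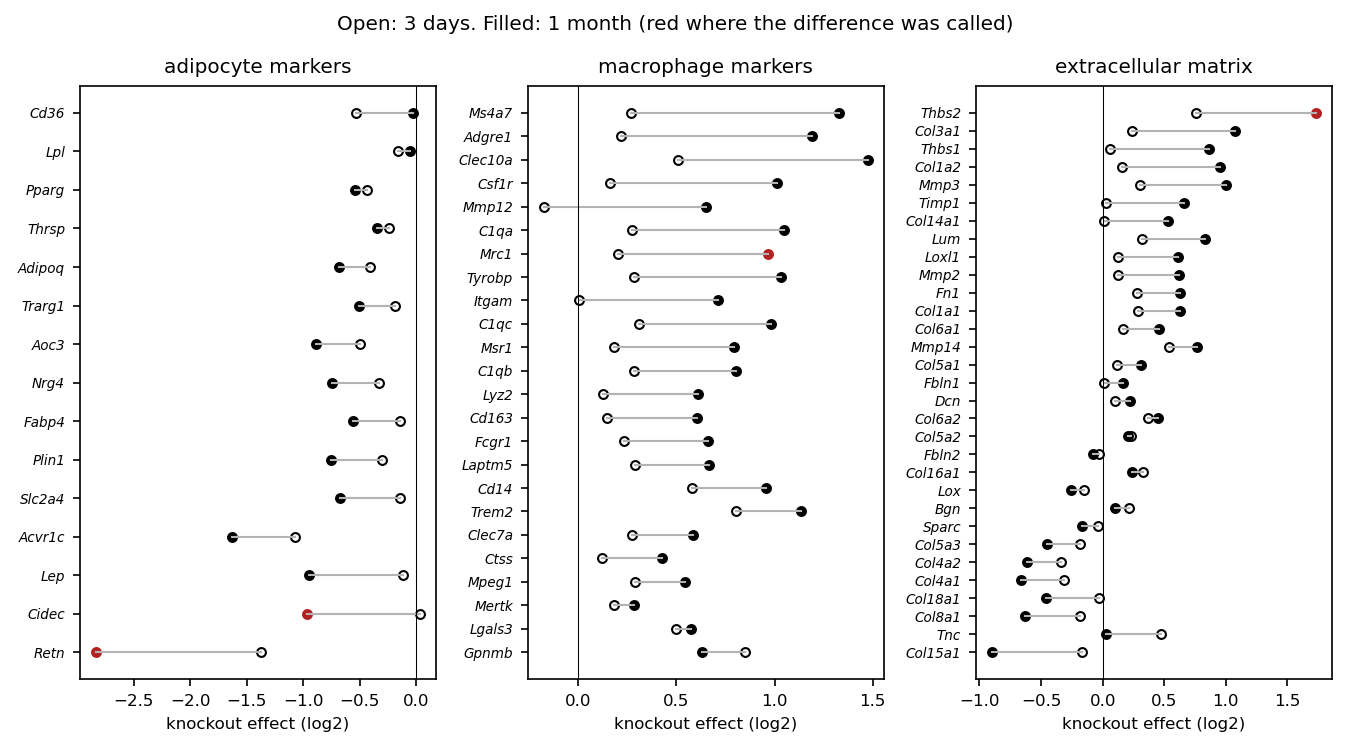
Knockout effect (x axis, log2) of the tested members of 3 gene lists (rows), open circles at 3 days and filled circles at 1 month, red where the difference was called; Fcer1g, whose SE of the difference was 2.22, is not drawn. Most adipocyte markers lie further left and most macrophage markers further right at 1 month, while the collagens lie on both sides.

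Matrix genes were found on both sides. Of 31 tested, Thbs2 alone was called at 3 days, and 14 were higher and 5 lower at 1 month, beside 8.96% and 8.46% of all genes. The interstitial collagens Col1a1, Col1a2 and Col3a1 rose at 1 month by 0.63, 0.96 and 1.08, while the basement membrane collagens Col4a1, Col4a2, Col15a1 and Col18a1 fell by 0.67, 0.62, 0.90 and 0.46 on the log2 scale. Col4a5, a basement membrane collagen outside the list, went the other way: it rose by 1.52 at 1 month and had a difference of 1.03 ± 0.20 (adjusted p = 0.0293). Other collagens tested lay on both sides at 1 month. Among them, Col5a1 and Col5a2 had effects of 0.31 and 0.20, and Col5a3 and Col8a1 of -0.45 and -0.63. The grouping into interstitial and basement membrane collagens was made after the values were seen. The difference between the times was called for Thbs2, a matrix protein that restrains vessel growth. It read 1179, 1251 and 1008 in the 3-day controls and 2072, 2018 and 1562 in the knockouts, and 1140.2, 1458 and 1226 against 3824, 4034 and 4126 at 1 month. The difference of 0.97 ± 0.19 (adjusted p = 0.0378) was not called in 8 of the 12 fits that left out 1 array (adjusted p up to 0.105, without replicate 1 of the 3-day controls).

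Called stromal markers were higher at 1 month, like the macrophage genes, while called endothelial markers were lower. Of 12 stromal and progenitor markers, 6 were higher at 1 month, Pdgfra among them with 0.70, and none was called at 3 days. Over all genes, 8.96% were higher and 8.46% lower at 1 month. Of 13 endothelial markers, 6 were lower at 1 month, Pecam1 by 0.34 and Cldn5 by 0.81 on the log2 scale, and none was called at 3 days. No member of either list was called for the difference. The stromal list's median lay 0.38 to 0.64 above the control mean in the 1-month knockouts, and the endothelial list's between -0.52 and -0.20. The part of cell composition in the falls and rises above was not tested. Among contractile genes, Acta2, the smooth muscle actin, had effects of 0.08 ± 0.10 and -0.78 ± 0.10 and a difference of -0.86 ± 0.15 (adjusted p = 0.0156), called in 2 of its 4 probes. Without the lymphocyte-rich and muscle-rich arrays its adjusted p was 0.0521. Synpo2, an actin-bundling protein, had a difference of -1.28 ± 0.23, not called in 3 of the 12 fits that left out 1 array (adjusted p up to 0.0634, without replicate 1 of the 3-day controls). The other 13 contractile genes tested were not called for the difference.

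Genes of lipid synthesis were lower at 1 month in part of the list, with no called difference. Of 22 genes of fatty acid and triglyceride synthesis, 2 were lower at 3 days (Acss2 and Dgat1) and 9 at 1 month, with medians of -0.30 and -0.38. The shares of all genes that were lower were 1.19% at 3 days and 8.46% at 1 month. Fasn, the fatty acid synthase, had effects of -0.91 (not called) and -0.94 (called), and a difference of -0.03 ± 0.32. Of 17 cholesterol synthesis genes, 1 was lower at 3 days and 12 at 1 month, with medians of -0.41 and -0.65, and no difference was called. Sc5d, a late enzyme of that pathway, had effects of -0.41 and -1.22, and its difference had an adjusted p of 0.12. Without the lymphocyte-rich and muscle-rich arrays 1 gene of each list was called for the difference, Scd2, a fatty acid desaturase (-1.44 ± 0.25), and Sc5d (-1.05 ± 0.19). Outside these lists, 2 enzymes named after their values were seen were called for a larger fall at 1 month: Mogat2, of triglyceride assembly, with effects of -0.69 and -1.72, and Lpgat1, an acyltransferase of phospholipids, with -0.80 and -2.01.

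Lipolysis and droplet genes were lower in 4 of 21 at 3 days and in 14 at 1 month, beside 1.19% and 8.46% of all genes. Cidec and Bscl2 were called for the difference. Bscl2, which encodes seipin, a protein of droplet formation, read 13596, 13474 and 12459 in the 3-day controls and 10375, 10222 and 8788 in the knockouts. In the 1-month arrays it read 15400.0, 16073 and 16405 against 7673, 7206 and 6941. The groups were apart at both times, and the effects of -0.43 and -1.14 differed by -0.71 ± 0.13 (adjusted p = 0.0191). The call was lost in 4 of the 12 fits that left out 1 array (adjusted p up to 0.0581, without replicate 3 of the 1-month knockouts). Among the insulin and glucose genes, of which 1 of 19 fell at 3 days and 7 at 1 month, the kinase Akt2 had a difference of -0.84 ± 0.17, not called in 10 of those fits (adjusted p up to 0.0934, without replicate 1 of the 1-month controls). Its second probe gave -0.55. Slc2a4, the insulin-responsive glucose transporter, had effects of -0.14 and -0.67 and no called difference.

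In the breakdown of branched chain amino acids, 6 of 19 genes were lower at 1 month and none at 3 days, beside 8.46% and 1.19% of all genes. Bcat2, the mitochondrial transaminase of the first step, was called for the difference. It read 1132, 1412 and 1226 in the 3-day controls and 1007, 1056 and 1104 in the knockouts, and 1921, 1882 and 1814 against 913, 882 and 931 at 1 month. The difference was -0.86 ± 0.13 (adjusted p = 0.00952). Chac1, a stress-induced enzyme of glutathione breakdown, had effects of 0.24 ± 0.16 and -0.92 ± 0.16. Its difference of -1.16 ± 0.22 (adjusted p = 0.0298) was not called in 9 of the 12 fits that left out 1 array (adjusted p up to 0.0923, without replicate 1 of the 3-day controls) and had an adjusted p of 0.131 in a fit of all 24 arrays. Of 20 fatty acid oxidation genes, none was called at 3 days and 3 were higher and 2 lower at 1 month. Of 25 respiratory chain and citrate cycle genes, none was called at 3 days and 3 were higher at 1 month. The counts of the oxidation list and of the respiratory chain list are near the shares of all genes called at 1 month (8.96% higher, 8.46% lower). No member of these 2 lists was called for the difference. Of 12 brown and beige fat genes, 4 were higher and 2 lower at 1 month, beside 8.96% and 8.46% of all genes. Cidea (1.04), a lipid droplet protein, and Cox7a1 (1.19), a respiratory chain subunit, rose. Ucp1, the uncoupling protein that defines brown fat, had an effect of 0.70, not called. The differences of Cidea, Cox7a1 and Ucp1 were 0.67 ± 0.18, 0.99 ± 0.27 and 0.81 ± 0.50, none of them called.

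**Figure D4:**
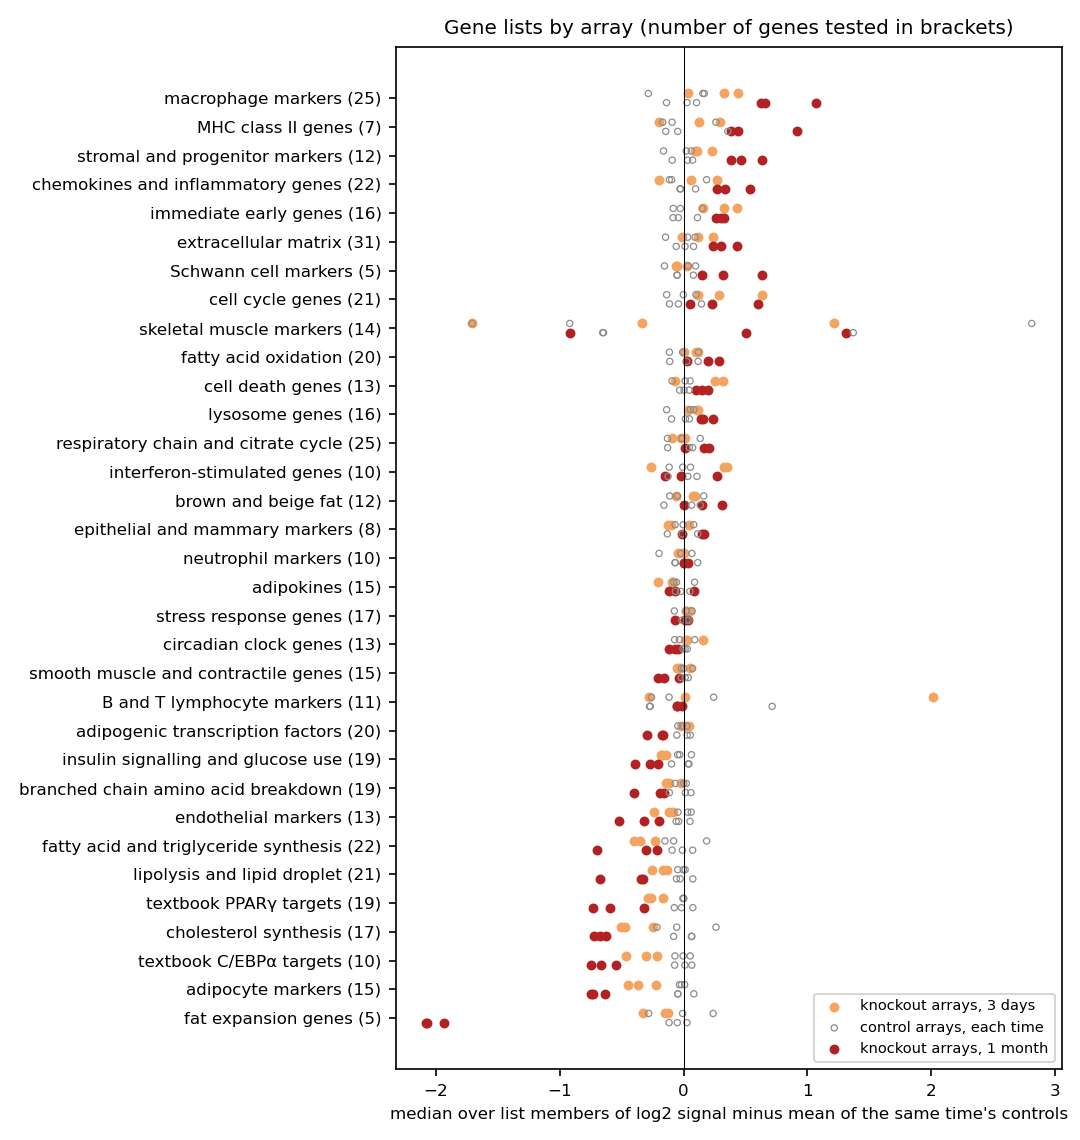
Median over the tested members of each gene list (rows, lists of at least 5 genes, number tested in brackets) of log2 signal minus the mean of the controls of the same time (x axis), 1 point per array. The fat expansion list lies near -2 in the 3 knockout arrays at 1 month and near the controls at 3 days; single arrays stand apart for the lymphocyte and skeletal muscle lists.

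Some genes were called at both times without a called difference. Among genes called at both times with the same sign and an effect of at least 1 (log2) at each, the 10 with the smallest difference were Cebpg, Nnmt, Slc25a25, Gm7854, Comp, Mup2, Rasd1, Esm1, Lrtm1 and Chst1. They were chosen for that likeness, so their small differences are a description. Nnmt, which methylates nicotinamide, read 6188, 6836 and 4987 in the 3-day controls and 2710.0, 3613 and 1755 in the knockouts, and 9767, 7733 and 8091 against 3906, 3326 and 3471 at 1 month. It had effects of -1.24 ± 0.22 and -1.28 ± 0.22. Slc25a25, a mitochondrial carrier of ATP and phosphate, had -1.10 ± 0.13 and -1.15 ± 0.13. Comp, a cartilage matrix protein, rose by 1.80 ± 0.20 and 2.01 ± 0.20, though its second probe gave 0.16 and 0.75. The other 2 probes of Mup2 were not alike at the times, with -1.15 and -1.03 at 3 days and 0.01 and -0.04 at 1 month. The 95% interval of the difference ran from -0.46 to 0.35 for Slc25a25 and from -0.72 to 0.64 for Nnmt. The last of the 10 were less alike: Esm1 and Lrtm1 had differences of -0.42 and -0.45, with a second probe of Lrtm1 at 0.25, and Chst1 had effects of -1.27 and -1.76 and an interval from -0.93 to -0.05. Mup2, Rasd1, Esm1 and Lrtm1 were not called at 3 days without the lymphocyte-rich and muscle-rich arrays (adjusted p of 0.0637 to 0.124).

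Immediate early genes, which respond within minutes to stimuli and to handling of tissue, were called in 3 of 16 at 3 days (Fos, Junb and Zfp36) and in 3 at 1 month (Fosl2, Egr1 and Egr2), all higher, and none was called for the difference. The shares of all genes called higher were 0.53% at 3 days and 8.96% at 1 month. Fos had effects of 1.27 and 0.76, and Egr1 1.04 and 1.06. Without the lymphocyte-rich and muscle-rich arrays none of the 16 was called at 3 days, with Fos at 0.84 and Junb at 0.95. Of 21 cell cycle genes, 1 was higher at 3 days and 3 at 1 month, with medians of 0.36 and 0.31, beside 8.96% of all genes higher at 1 month. Of the 11 lymphocyte and 14 skeletal muscle markers, none was called at either time or for the difference.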

How the data were processed

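RNA of subcutaneous fat was biotin-labelled and read on Illumina arrays, per the labels' protocols. The deposited table holds 1 linear intensity per array for 45281 probes; which software the authors used, and how it treated background, is not given in the sources used here. As the values show, the authors normalised each set of 6 arrays to one distribution: sorted intensities differed by at most 0.189 at 3 days and 0.173 at 1 month. A second deposited table, with 96 columns not matched to samples by name, was not used.

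Each set's background level was the mode of its intensities, with an SD from the values below it. The normexp model (limma 3.58.1, R 4.3.3) removed it before an offset of 16 and log2, so folds of dim genes are understated. A probe entered the tests when at least 3 of the 12 arrays exceeded background at 5% false positives, which left 27315 probes; 52.9% of all readings at 3 days and 54.7% at 1 month lay above that level. GEO's platform annotation named 34885 probes with 1 gene and 18 with several, and 10378 were not listed; 34807 symbols were updated through Entrez identifiers in RefSeq's GRCm38.p6 gene table. The brightest probe on average stood for each of 13576 genes, of which 7839 had 1 probe kept.

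limma fitted the 4 group means over the 12 arrays with a shared spread (lmFit, contrasts, eBayes, two-sided, Benjamini-Hochberg over all genes). A fold against a group with no array above background is a lower bound, against the lowest signal above background. The number of arrays limits the precision. Tested on simulated data, the test of the difference over 13576 genes recovered 20% of changes of 0.5 (log2), 70% of 1, 96% of 2 and 98% of 3, and 8.97% of its 156 calls were false. In these data 50 genes were changed at each size. Noise was normal and independent between genes, with a spread per gene shared by the 4 groups. No simulated array stood apart as the lymphocyte-rich and muscle-rich arrays do, so these shares may not hold for the real arrays.

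The comparison, the 35 gene lists and the rule for named genes were chosen with earlier results of these data known. The rule names Cebpa, Cebpb, Cebpd and Pparg; the 15 largest called differences in each direction; genes with a larger effect at 3 days; the 10 most alike genes called at both times; and up to 5 called members per list. Other genes are list members or are said to be picked after their values were seen. Alternatives covered the background step, offset, filter, probe, arrays in the fit, between-set normalisation, replicate block, weights, prior variance, threshold and leaving out each array.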

Additional observations from a re-analysis of the deposited data

Results flagged for a closer look

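The effects at 3 days and 1 month were found to differ for 139 genes by limma's test of the difference itself, 98 of them more negative and 41 more positive at 1 month. For Lcn2 the difference was 1.65, with every 3-day knockout array below the controls and every 1-month knockout array above them. For Mup6 the difference was 1.22, and at 1 month its probe was above background in 1 of 3 controls and in no knockout. Among 4804 probes tested that have no gene name in the annotation used, and that enter no comparison by gene, 27 were called for the difference in a fit of all 27315 probes. No explanation of these values was tested.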

How the results depend on the processing

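Counts are given in the order difference more positive and more negative at 1 month (41 and 98 as reported), 3 days higher and lower (72 and 162), and 1 month higher and lower (1217 and 1149). Without background correction the first 4 were 94, 178, 112 and 245; with an offset of 50, 91, 171, 110 and 241; with all 24 arrays, 113, 157, 129 and 232; with an intensity trend, 80, 153, 110 and 240; and with array weights, 73, 141, 124 and 242. At an adjusted p under 0.01 the 6 counts were 7, 36, 11, 56, 565 and 658, and at 2-fold or more 18, 63, 13, 34, 98 and 205. Each set alone gave 12 and 67 at 3 days. Testing every probe gave 1828 and 1853 at 1 month, since more features are tested. Without the lymphocyte-rich and muscle-rich arrays, chosen after seeing the data, the 3-day counts were 24 and 57. Leaving out 1 array at a time gave 16 to 44, 62 to 121, 25 to 85, 73 to 192, 778 to 1300 and 832 to 1205, with fewer samples in the fit. Deviations from the group mean in knockout and control arrays of the same replicate number correlated between -0.262 and 0.0641. With 3 arrays a group these values cannot exclude a pairing, and the main fit treated the arrays as unpaired. With the replicate block the counts were 26, 73, 28, 88, 981 and 972. The filter on dim probes, normalisation between sets and precision weights per set kept all 6 counts within 1.5 times. For the 42 named genes called for the difference, all 965 values under these alternatives kept their direction, and 146 were not called. For the other 13, none of 299 values was called, and 30, in 9 genes (Cebpb, Cebpg, Comp, Gm7854, Mup2, Nnmt, Pparg, Rasd1 and Slc25a25), had the opposite sign. Genes outside the naming rule, such as Ffar4, Sucnr1 and Col4a5, were not followed one by one when an array was left out. How often their calls would be lost is therefore not given here. Where not stated, the cause of a change was not tested. Median signal was close to background, which limits what dim probes can show.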
